A study of Mus musculus with 40 samples.

Results

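The interferon response genes described here are 35 genes named by symbol: transcription factors, antiviral effectors, ISG15-pathway enzymes, guanylate-binding proteins and antigen-processing genes. Each of the 35 had a row in all 4 tables of normalized counts, and together the tables hold 20078 gene symbols. RNA came from liver or from gonadal white adipose tissue, the fat beside the gonads (gWAT), of sons and daughters whose fathers received nicotine or a control treatment that appears as DMSO in the column names. Every group was of the C57BL/6J strain, and the labels name no allele or transgene. They list 40 samples in 8 groups of 5 (nicotine or control, liver or gWAT, female or male). Of these, 39 library columns were used, with 4 control columns in male gWAT that carry no replicate number. Dose, length of exposure, age and the fathers' or litters' identity were not given in the sources used here, so the p-values reflect the spread between these samples alone, and that spread may be technical.

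Interferons are secreted when cells sense viral RNA or DNA. Type I interferon acts through the receptor pair Ifnar1 and Ifnar2 and a complex that holds Stat2 and Irf9 and binds the interferon-stimulated response element (ISRE) of its target genes, while interferon gamma acts mainly at gamma-activated sites (GAS) and through Irf1. The target genes block translation of viral RNA, hold virus particles at the membrane, modify proteins with ISG15 or ADP-ribose and raise antigen presentation on MHC class I. In liver and fat they are expressed at a low level in health, in parenchymal cells as well as in macrophages.

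Response elements were searched in the promoters of the members, and 5 windows are printed below. They are examples and do not represent the members that passed. RefSeq promoter windows (GRCm38.p6, from 250 bases before to 50 bases after the annotated start) were found for 28 of the 35 members, all except Usp18, Ifi27, Rtp4, Parp9, Parp14, Ly6e and Mx1. The ISRE was searched as a pair of GAAA letters separated by any 2 bases, or TTTC and TTTC with the same gap for the other strand. Some genes have more than 1 window, and a gene was counted if any of its windows held a match. The ISRE was present for 14 of the 28 members, against 3.99% of 27025 genes with a window. Counted by window, it was present in 3.44% of all 32851 windows of the same length. The GAS was searched as TTCNNNGAA, which reads the same on both strands, and was present in 8 of the 28 (28.6%) against 9.55% of genes. Capitals mark ISRE matches in Isg15, B2m and Bst2 and the GAS match in Irf1. The windows are Isg15 at chr4:156200769-156201068, minus strand, B2m at chr2:122147437-122147736, plus strand, Bst2 at chr8:71537423-71537722, minus strand, Irf1 at chr11:53769764-53770063, plus strand, and Tap1 at chr17:34187306-34187605, plus strand, each read 5′ to 3′ along its gene.
Isg15: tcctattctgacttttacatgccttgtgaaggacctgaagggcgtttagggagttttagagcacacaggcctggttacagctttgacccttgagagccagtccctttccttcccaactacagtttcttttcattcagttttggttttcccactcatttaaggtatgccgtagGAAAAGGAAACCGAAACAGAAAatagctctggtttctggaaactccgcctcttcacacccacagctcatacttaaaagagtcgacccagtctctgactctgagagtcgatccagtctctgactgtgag
B2m: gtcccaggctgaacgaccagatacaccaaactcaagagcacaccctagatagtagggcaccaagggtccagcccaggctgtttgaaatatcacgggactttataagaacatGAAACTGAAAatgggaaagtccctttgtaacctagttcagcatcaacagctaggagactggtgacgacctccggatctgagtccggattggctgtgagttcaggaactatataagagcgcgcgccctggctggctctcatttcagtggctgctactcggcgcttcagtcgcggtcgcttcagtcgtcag
Bst2: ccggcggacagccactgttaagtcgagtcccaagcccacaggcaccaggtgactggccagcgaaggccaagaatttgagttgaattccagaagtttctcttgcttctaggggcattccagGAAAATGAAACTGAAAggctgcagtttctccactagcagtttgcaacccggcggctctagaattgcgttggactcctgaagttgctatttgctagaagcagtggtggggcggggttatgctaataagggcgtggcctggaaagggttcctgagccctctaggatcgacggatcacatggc
Irf1: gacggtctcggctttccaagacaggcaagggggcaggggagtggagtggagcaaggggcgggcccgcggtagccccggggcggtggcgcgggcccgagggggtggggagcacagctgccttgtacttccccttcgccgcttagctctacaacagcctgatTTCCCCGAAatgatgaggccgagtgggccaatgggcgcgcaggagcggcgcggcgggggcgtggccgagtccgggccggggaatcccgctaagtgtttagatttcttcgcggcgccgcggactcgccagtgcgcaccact
Tap1: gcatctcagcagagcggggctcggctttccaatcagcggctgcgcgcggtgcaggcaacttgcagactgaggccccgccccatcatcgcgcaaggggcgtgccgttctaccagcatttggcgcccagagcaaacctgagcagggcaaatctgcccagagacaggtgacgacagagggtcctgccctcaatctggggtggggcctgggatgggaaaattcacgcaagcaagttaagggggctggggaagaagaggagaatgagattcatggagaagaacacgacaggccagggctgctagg
Isg15 held 3 overlapping ISRE matches and B2m held 1. Bst2 held 2, 1 of which overlaps a GAS match. The printed Irf1 window held 1 GAS match and was chosen for it. Another Irf1 window, at chr11:53770223-53770522 on the plus strand, held no GAS or ISRE match. The Tap1 window held no ISRE match in these letters, and it shares 275 of its 300 bases with the window of Psmb9, which is read in the opposite direction. Isg15 passed the main test (limma, below) in no table. Of the members that passed it, Herc6 and Samd9l had windows with no ISRE or GAS match, and Parp9 and Ly6e had no window. A match is a description of the letters and not a measured binding site.

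The assay was 3′-tag RNA sequencing, which counts reads near the end of each polyadenylated transcript. The unit is the normalized count, read counts that the authors divided by a size factor per library, so that 1 read was worth between 0.736 and 1.33 normalized counts. Libraries held 1543208 to 2239073 reads assigned to genes. Differences are log2 changes, nicotine minus control, on log2(normalized count + 1), a scale that understates the change of low genes. Genes with a mean of 10 or more over a table's libraries were tested with limma, with Benjamini-Hochberg adjustment over all tested genes and a threshold of 0.05. Of the 35 members, 31 were tested in each female tissue and 30 in each male tissue, and 28 were tested in all 4. Oas1a, Xaf1 and Mx1 (a GTPase whose C57BL/6J allele is defective) stayed below that mean everywhere. Oasl2 did so in both livers, Ifit2 in male liver, Usp18 in both gWAT tables and Ifi44 in male gWAT, and group means of these low members reached at most 11.1 normalized counts. Hepatocyte markers summed to 57345 to 101743 normalized counts in the livers and adipocyte markers to 19552 to 92860.2 in gWAT. Reads of close relatives may be shared within the Gbp genes, between Ifit3 and Ifit3b, Oas1a and Oas1g and the Trim30 genes, so these values are uncertain.

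Some libraries stand apart in ways that touch the members, and results that rest on them are given with and without them below. In male liver, nicotine libraries 1 and 5 had the lowest hepatocyte marker sums and the highest macrophage marker sums, nicotine library 2 carried pancreas transcripts (summed marker level 11248) and nicotine library 4 carried muscle transcripts (8594). In female gWAT, control library 2 carried muscle transcripts (32048) and control library 4 had the highest neutrophil and macrophage marker sums. In male gWAT, control column 1 and nicotine library 1 carried the most epididymis transcripts (16284 and 12797 against 31.9 to 3688 in the others). In bulk tissue, fewer cells of a type and less RNA per cell cannot be told apart.

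**Figure D1:**
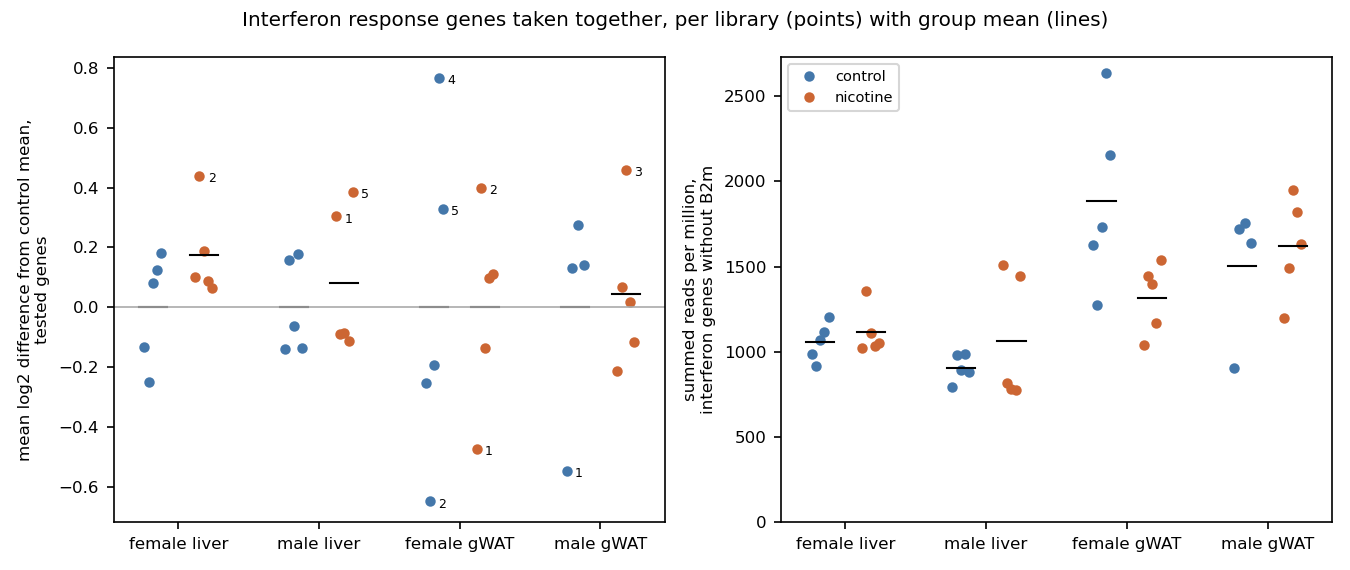
Level of the interferon response genes per library in the 4 tables, blue for control and orange for nicotine, with lines at group means. Left: mean over the tested members of the log2 difference from the control mean of that table, with the replicate number beside libraries at least 0.28 from 0. Right: summed RPM (reads scaled to library size) over the members without B2m. Female gWAT control library 4 is highest on both axes, and groups overlap in every table.

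B2m alone carried more reads than the other 34 members together in each group mean, so the summed level is given without it. As a share of each library's reads (RPM), that sum averaged 1058 ± 113 RPM in control and 1114 ± 139 in nicotine female liver (SD, n = 5 each), and 908 ± 80.8 and 1066 ± 376 in male liver. In gWAT it averaged 1885 ± 523 and 1317 ± 206 in females (n = 5 each) and 1504 ± 404 (n = 4) and 1619 ± 292 (n = 5) in males. The size of the female gWAT difference depends on the scale. In normalized counts, the unit of the other results, the same sum ran from 2114 to 4306 in controls and from 2135 to 3359 with nicotine. The mean log2 level of the tested members in the nicotine group was -0.0008 relative to the control mean. The groups overlapped in every table, and single libraries span most of the range: female gWAT control library 4 reached 2635 RPM and male gWAT control column 1 stood at 903.

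**Figure D2:**
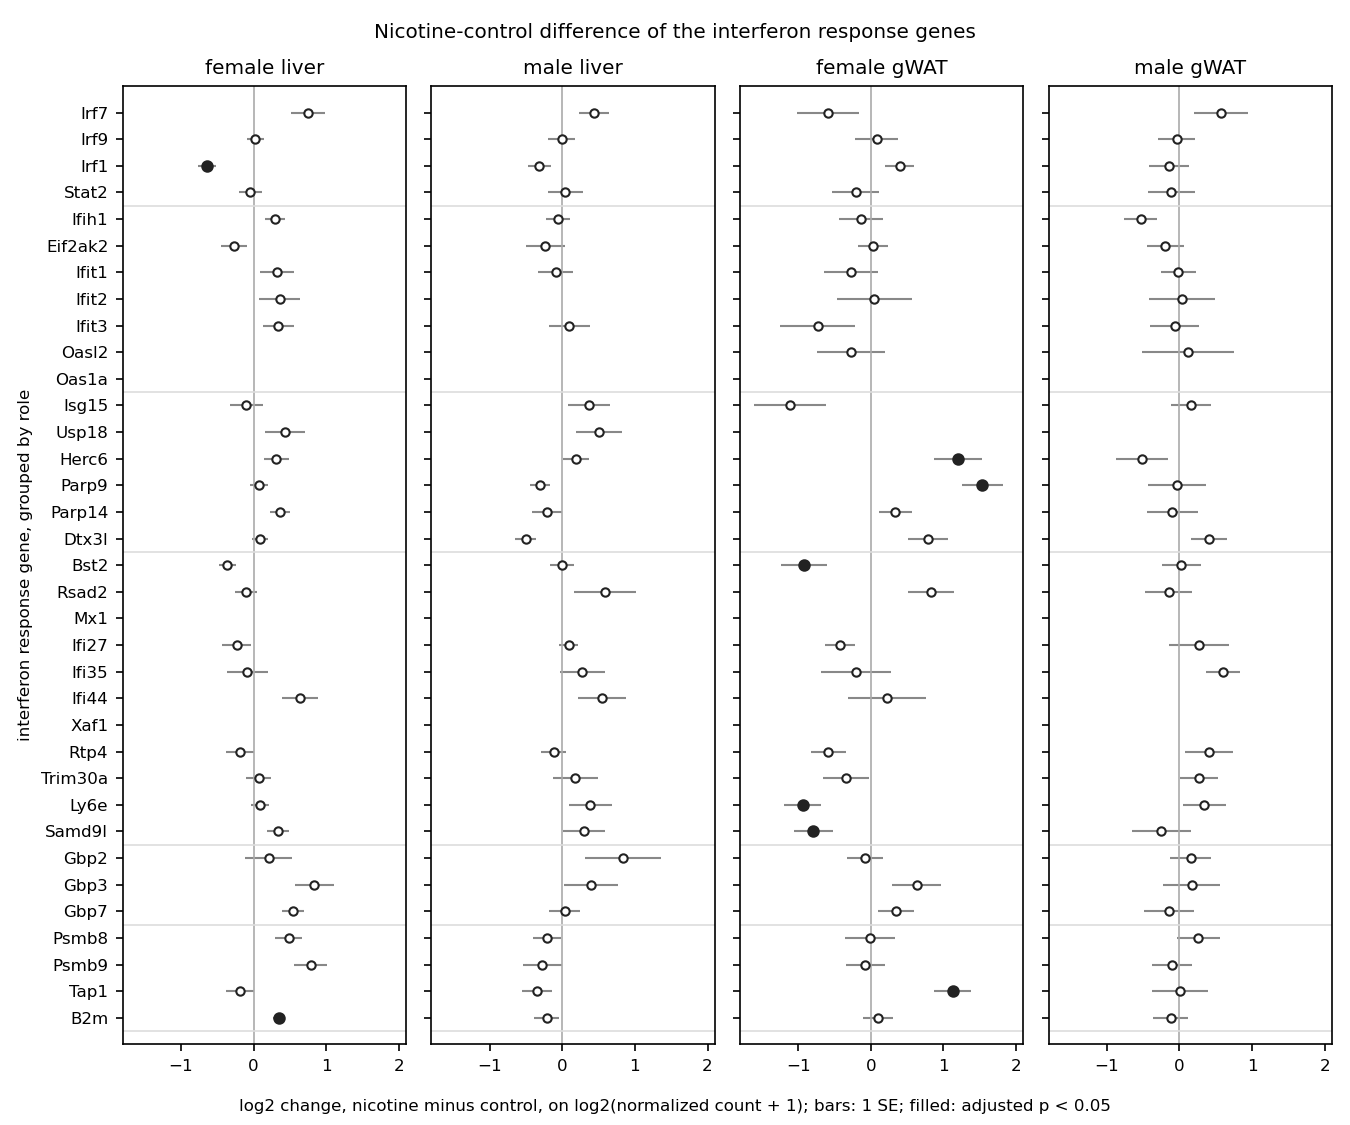
Log2 change (nicotine minus control, x axis) of each tested interferon response gene in the 4 tables, genes grouped by role on the y axis. Points are limma estimates, bars 1 SE, and filled points passed an adjusted p of 0.05. The 8 filled points are Irf1 and B2m in female liver and 6 genes, 3 on each side of 0, in female gWAT. Genes with no point were below the mean of 10.

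In the gWAT of daughters, members passed in both directions, as did tested genes in general. Parp9, Herc6 and Tap1 rose 2.81-fold, 2.32-fold and 2.16-fold with paternal nicotine, while Ly6e, Bst2 and Samd9l fell to between 0.471 and 0.555 times the control mean. These 6 are 19.4% of the 31 tested members. Of all 10532 tested genes 25.2% passed, 12.4% higher and 12.8% lower, so the members' share did not exceed the background of this comparison. Their median log2 change was -0.07, beside -0.03 for all tested genes, and 14 of 31 had the higher mean log2 level in the nicotine group (all genes 48.4%). At an unadjusted p below 0.05 limma gave 10 members, 32.3% beside 38.2% of genes. edgeR called the same 6 members (background 24.3%). DESeq2 on the recovered reads called these and Isg15 (28.5%), as did the authors' deposited table (18.9% of the genes it adjusted).

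The enzymes of ISG15 and ADP-ribose modification held 2 of the 3 rises. Of their 5 tested members 4 had a higher mean with nicotine, beside 48.4% of all tested genes. Roles were chosen with earlier results of these data known, so counts by role are a description only. Parp9 (chr16:35938470-35972605, plus strand, GRCm38, GENCODE M21), an ADP-ribosyltransferase family protein that works as a pair with the ubiquitin ligase Dtx3l, stood at 42.1, 18.3, 26.2, 37.6 and 59.6 normalized counts in control libraries 1 to 5 and at 72.2, 139, 84.6, 115 and 106 in nicotine libraries 1 to 5. All 5 nicotine libraries lay above all 5 controls, and the means were 36.8 ± 15.8 and 103 ± 26.1 (SD, n = 5 each; log2 change 1.54, SE 0.28, limma adjusted p = 0.00199). Herc6 (chr6:57581000-57664632, plus strand), the mouse ligase that attaches ISG15 to proteins, counted 15.7, 10.1, 28.8, 30.2 and 27.3 in controls and 28.7, 51.9, 40.9, 78.1 and 60.0 with nicotine. Nicotine library 1 fell among the controls and the other 4 lay above them (means 22.4 ± 9.00 and 51.9 ± 18.8, log2 change 1.21, SE 0.33, limma adjusted p = 0.0170). Dtx3l (chr16:35926511-35939151, minus strand), the partner of Parp9, stood at 56.8, 40.3, 38.4, 84.3 and 97.7 and at 68.8, 130.4, 84.6, 131 and 116, with 3 nicotine libraries above every control. It missed the threshold (log2 change 0.79, SE 0.28, limma adjusted p = 0.0516), and passed without control library 4 (adjusted p = 0.0418), control library 5 (0.0238) or nicotine library 1 (0.0257). Isg15, the ubiquitin-like modifier itself, stood at 37.2, 29.3, 40.2, 224 and 107 in controls and 14.9, 45.9, 40.0, 18.0 and 41.3 with nicotine. Control libraries 4 and 5 lay above the other 8, and the log2 change of -1.11 (SE 0.50) did not pass in limma (adjusted p = 0.117). DESeq2 on the recovered reads (adjusted p = 0.0239) and the authors' deposited table (adjusted p = 0.0333) both list Isg15 as lower. In limma its log2 change was -0.66 without control library 4 (adjusted p = 0.279). Parp14, a larger ADP-ribosyltransferase, had a log2 change of 0.34 and did not pass.

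Among the antigen-processing genes Tap1 alone passed. Tap1 (chr17:34187553-34197225, plus strand), a subunit of the transporter that brings peptides to MHC class I, stood at 25.5, 18.3, 14.8, 37.6 and 28.2 in controls and at 64.2, 48.3, 41.8, 46.9 and 67.5 with nicotine. The groups did not overlap (means 24.9 ± 8.88 and 53.7 ± 11.4, log2 change 1.13, SE 0.25, limma adjusted p = 0.00631). Parp9 and Tap1 were the 2 members whose groups did not overlap, 6.45% of those tested beside 16.7% of all tested genes. Psmb9, an immunoproteasome subunit whose start lies beside that of Tap1, ranged over 21.1 to 66.9 in controls and 27.5 to 38.6 with nicotine (log2 change -0.07). Psmb8, another immunoproteasome subunit, stood at 49.98, 19.2, 49.8, 81.5 and 58.0 and at 61.9, 53.1, 36.4, 26.4 and 68.4 (log2 change -0.01, limma adjusted p = 0.981), with wide overlap. B2m, the light chain of MHC class I, stood at 4057, 3187, 4296, 5747 and 4362 and at 3254, 4894, 4576, 5621 and 4701 (log2 change 0.09, limma adjusted p = 0.773). The highest B2m value was that of control library 4 and the groups overlapped.

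The 3 members that fell belong to the role of other antiviral and interferon-induced proteins. Of the 9 tested members of that role 7 had a lower mean with nicotine, where 48.4% of all tested genes had a higher one. Ly6e (chr15:74955051-74959905, plus strand), a lipid-anchored surface protein that restricts the entry of some viruses, stood at 125, 91.6, 151, 258 and 195 in controls and 57.3, 90.6, 101, 81.7 and 76.9 with nicotine. Only control library 2 lay within the nicotine range (means 164 ± 64.7 and 81.5 ± 16.3, log2 change -0.94, SE 0.25, limma adjusted p = 0.0157). Bst2 (chr8:71534255-71537456, minus strand), or tetherin, which holds budding virus particles at the cell surface and whose promoter is printed above, stood at 145, 170.4, 183, 563 and 216 and at 81.4, 121, 159, 102 and 139. Control library 4 lay far above all others, and the highest nicotine library reached into the control range (means 256 ± 174 and 120.4 ± 30.4, log2 change -0.92, SE 0.31, limma adjusted p = 0.0441). Samd9l (chr6:3372257-3399572, minus strand), an interferon-induced protein that restrains translation and growth, stood at 37.2, 46.7, 51.5, 93.4 and 76.2 and at 24.1, 42.3, 29.1, 45.7 and 28.1. Nicotine libraries 2 and 4 lay above control library 1, and all 5 lay below the other 4 controls (means 61.0 ± 23.1 and 33.8 ± 9.51, log2 change -0.80, SE 0.27, limma adjusted p = 0.0429). Rsad2, or viperin, which makes a chain-terminating nucleotide, went against this group in its mean, with 109.8, 44.9, 62.0, 156 and 93.6 in controls and 149, 200.4, 114, 227 and 105 with nicotine (log2 change 0.83, SE 0.31, limma adjusted p = 0.0649), and did not pass. It passed without control library 4 or without nicotine library 5. The call of Bst2 was lost without control library 3, 4 or 5 (limma adjusted p = 0.0561, 0.0638 and 0.0716) or nicotine library 1, 2, 4 or 5 (0.0844, 0.0787, 0.0948 and 0.0512), and its log2 change was -0.59 without control library 4. That of Samd9l was lost without control library 3, 4 or 5 (0.0626, 0.108 and 0.0996) or nicotine library 1, 3 or 5 (0.0800, 0.0799 and 0.0802). Parp9, Tap1, Herc6 and Ly6e passed with each single library left out, and also without control libraries 2 and 4 together, a setting chosen after seeing the data in which 1539 genes passed in place of 2656.

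**Figure D3:**
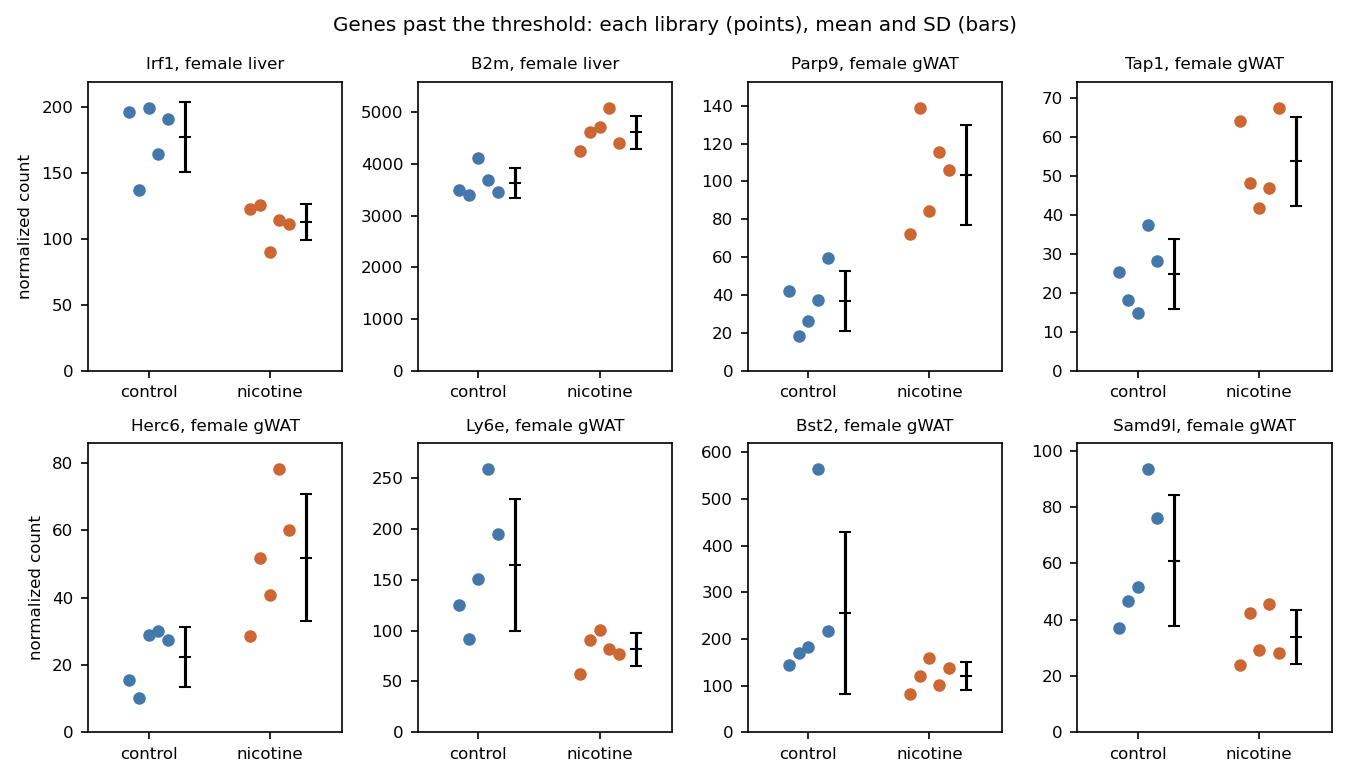
Normalized count (y axis, from 0) of the members past the threshold in each library, control in blue and nicotine in orange, with mean and SD beside each group. Irf1 and B2m are shown for female liver and the other 6 for female gWAT. Groups do not overlap for Irf1, B2m, Parp9 and Tap1, and control library 4 is the separate high point of Bst2.

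None of the 4 transcription factors or of the 6 tested RNA sensors passed in female gWAT. Irf7, which drives interferon production, stood at 16.7, 11.0, 6.99, 32.1 and 19.9 in controls and 4.59, 10.9, 11.8, 9.62 and 15.9 with nicotine (log2 change -0.59, limma adjusted p = 0.335). Irf9, the DNA-binding subunit of the type I complex, stood at 57.8, 41.2, 51.5, 141 and 108 and at 63.1, 94.2, 61.8, 87.7 and 77.8 (log2 change 0.08). Both were highest in control library 4 and both overlapped. Stat2, a partner of Irf9, stood at 15.7, 15.6, 22.7, 33.0 and 19.0 and at 8.03, 24.2, 23.6, 16.8 and 20.6 (log2 change -0.21). Irf1 stood at 244, 135, 209.6, 242 and 241 and at 294, 331, 202, 281 and 288 (log2 change 0.39, limma adjusted p = 0.151), with 4 nicotine libraries above every control and nicotine library 3 below 4 of them. Of the proteins that bind viral RNA, Ifit1 stood at 13.7, 19.2, 27.9, 84.3 and 25.7 and at 22.9, 25.4, 23.6, 21.6 and 20.6. Control library 4 again stood apart, and the other 9 libraries lay between 13.7 and 27.9. Ifit3 stood at 37.2, 20.2, 46.3, 114 and 58.8 and at 11.5, 58.0, 49.1, 10.8 and 46.9 (log2 change -0.73), and Oasl2, an oligoadenylate synthetase-like protein, at 8.82, 12.8, 10.5, 43.1 and 29.8 and at 13.8, 21.7, 5.46, 20.4 and 16.9 (log2 change -0.27). For both, control library 4 was the highest and nicotine libraries were spread on both sides of the lower controls. Ifih1 (the RNA sensor MDA5) and Eif2ak2 (the kinase PKR) had log2 changes of -0.14 and 0.03, and Gbp2, Gbp3 and Gbp7, GTPases that attack pathogen vacuoles, -0.08, 0.63 and 0.34, with none past the threshold. The other tested members, Rtp4, Ifi27, Trim30a, Ifi35, Ifit2 and Ifi44, had log2 changes between -0.58 (Rtp4) and 0.22 (Ifi44), and none passed.

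Control library 4 was the highest of the 10 female gWAT libraries for 19 of the 31 tested members, and its mean member level was 0.77 above the control mean on the log2 scale. Control library 2 and nicotine library 1 were the lowest for 12 and 11 members. Within groups the members varied together from library to library. After each group's mean was removed, the median correlation over 465 pairs of members was 0.61 (0.48 without control library 4) beside -0.001 for pairs of all genes. This is a description over 10 libraries that differ in depth and cell makeup, and the part of these differences in the correlation was not tested. Irf9 (0.94) and Gbp3 (0.91) followed the mean of the other members most closely, and Ifi27 (0.05) least. Markers of several cell types moved with the exposure in the same table. Of 9 tested markers of macrophages and monocytes 8 fell and 1 (Itgam) rose, and the sum over the 12 listed genes ran from 1139.7 to 2479.8 normalized counts in controls and from 586 to 954 with nicotine, without overlap. Cd68, a defining macrophage gene, lay between 0 and 27.3 in all 10 libraries. Neutrophil markers summed to 246 in control library 4, to 14.7 to 55.9 in the other controls and to 1.20 to 6.04 with nicotine, where Cxcr2 was at 0 in all 5. Of 6 tested mesothelial markers 3 (Upk3b, Msln and Wt1) fell, with sums that overlapped (166 to 713 and 102 to 509). Of 10 adipocyte markers 2 (Plin1 and Car3) rose, again with overlapping sums (30357 to 92860.2 and 29469 to 55583). All 7 tested genes of the Kupffer cell list fell, 3 of which (Csf1r, Adgre1 and C1qa) are also on the macrophage list. These falls are not read as those of a further cell type. The lists share genes, and Clec4f of the Kupffer cell list had no row in female gWAT. Fcgr2b, 1 of 7 tested endothelial markers, and Cd209d, 1 of 3 tested plasmacytoid dendritic cell markers, fell. The part of these cells in the changes of the 6 members was not tested.

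Among the wider pathway genes of female gWAT the calls are read against the same background as the members, 25.2% of all tested genes (12.4% higher, 12.8% lower). Of 25 tested genes for interferon production, receptors and signalling, 5 fell, among them Socs3, Sting1, Irf8 and Tlr3, and 0 rose in limma. With both directions together this share did not exceed the 25.2% of all genes. The share called lower was above the 12.8% of all genes, and the share called higher was below the 12.4%. No test compared these shares (median log2 change -0.17, beside -0.03 for all genes). Socs3, the feedback inhibitor of cytokine receptors, went from 18.0 ± 4.67 to 2.76 ± 3.79 (log2 change -2.78, limma adjusted p = 0.00670), and Sting1, the adaptor of cytosolic DNA sensing, from 34.4 ± 14.7 to 9.08 ± 4.23 (log2 change -1.81, limma adjusted p = 0.00324). For both the groups did not overlap. The receptor chains Ifnar1 (28.6 ± 7.72 and 40.2 ± 18.8) and Ifnar2 (158 ± 30.9 and 165 ± 12.5) did not pass. Of 56 other interferon-induced genes 5 rose and 8 fell, also near the background of 25.2% (median -0.17). Gbp4, Cxcl9, Mndal and Znfx1 rose, with log2 changes of 1.02, 0.90, 0.89 and 0.87. Plac8, Ifitm1, Ifitm3 and Ly6a fell, with log2 changes of -2.88, -2.73, -1.67 and -1.35. Ifitm3, which blocks virus fusion, ranged over 248 to 471 in controls and 38.5 to 153 with nicotine. Of 15 MHC class I presentation genes H2-T22 (0.91) and Erap1 (0.67) rose and H2-M3 (-2.05), Tapbp (-0.84) and Tapbpl (-0.64) fell, 5 of 15 beside the 25.2% of all genes (median 0.07). H2-K1, a classical class I heavy chain, was higher in all 5 nicotine libraries than in any control (1141 to 2016 against 2047 to 2948) and missed the threshold (log2 change 0.52, limma adjusted p = 0.0585).

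In the liver of daughters, Irf1 fell and B2m rose. These are 2 of the 31 tested members (6.45%), where 3.28% of 9173 tested genes passed (1.61% higher, 1.67% lower), and the same 2 were the members whose groups did not overlap (background 4.73%). On the log2 scale 21 of 31 had the higher mean with nicotine (all genes 49.3%), with a median change of 0.21 beside -0.00 for all genes. With unadjusted values, 12 members had a p below 0.05, 10 higher and 2 lower, beside 17.6% of all genes (8.84% higher, 8.71% lower).

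Irf1 (chr11:53770014-53778374, plus strand), a transcription factor induced through the GAS of its promoter, stood at 196, 137, 199, 165 and 191 in controls and at 123, 126, 90.2, 115 and 112 with nicotine. All 5 nicotine libraries lay below all controls (means 178 ± 26.6 and 113 ± 13.9, n = 5 each, log2 change -0.64, SE 0.12, limma adjusted p = 0.00475). The call held under each alternative tried, with an adjusted p from 3.05e-04 to 0.0222. Irf7 had a higher mean with nicotine, with 11.7, 15.4, 18.2, 25.7 and 29.1 in controls and 32.4, 44.7, 30.1, 31.6 and 26.9 with nicotine, where 4 nicotine libraries lay above every control (log2 change 0.75, SE 0.23, limma adjusted p = 0.0840), and it did not pass. Irf9 stood at 117, 100.3, 89.2, 111 and 107 and at 97.3, 114, 96.7, 124 and 101 (log2 change 0.02), and Stat2 at 48.6, 48.2, 56.6, 57.1 and 68.2 and at 56.0, 47.5, 49.4, 45.8 and 73.3 (log2 change -0.04). Their groups overlapped throughout.

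B2m (chr2:122147686-122153083, plus strand) stood at 3495, 3395, 4105, 3682 and 3465 in controls and at 4250.0, 4612, 4708, 5083 and 4395 with nicotine. Every nicotine library lay above every control, and the means of 3628 ± 287 and 4609.7 ± 319.8 (n = 5 each) differed 1.27-fold (log2 change 0.35, SE 0.08, limma adjusted p = 0.0218). The call was lost with quantile normalization (log2 change 0.24, adjusted p = 0.161), without control library 1, 2 or 5 (0.0550, 0.0587 and 0.0752), without nicotine library 4 (0.0556), and without control library 4 and nicotine library 5 together (0.0681), the pair with the most muscle transcripts. Without control library 5 or nicotine library 4 the number of genes called fell from 301 to 185 and 195. Psmb9 stood at 20.4, 24.1, 22.1, 48.5 and 17.3 and at 44.2, 50.4, 52.6, 39.3 and 33.1, with control library 4 inside the nicotine range and the other 4 controls below it (log2 change 0.79, limma adjusted p = 0.0645). Psmb8 stood at 29.1, 24.1, 39.3, 22.8 and 32.8 and at 27.5, 46.6, 47.3, 44.7 and 42.4, where 4 nicotine libraries lay above all controls and nicotine library 1 among them (log2 change 0.48, limma adjusted p = 0.181). Tap1, by contrast, had a log2 change of -0.19 (22.1 to 29.5 against 15.5 to 27.9). None of these 3 passed, although Psmb9 passed without control library 4.

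The guanylate-binding proteins all had higher means in female liver. Gbp7 stood at 59.2, 56.9, 78.6, 91.3 and 81.9 and at 89.4, 124, 84.9, 133 and 105 (log2 change 0.54, SE 0.15, limma adjusted p = 0.0618), with 3 nicotine libraries above every control. Gbp3 ran from 15.4 to 27.6 in controls and from 18.6 to 70.4 with nicotine (log2 change 0.83, limma adjusted p = 0.0933). The authors' deposited table lists both as higher at adjusted p-values of 0.0496 and 0.0313, next to Irf1 and B2m, and 3.73% of all genes it adjusted. DESeq2 on the recovered reads called the same 4 members (background 4.51%), and edgeR called Irf1 and B2m (3.28%).

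Antiviral effectors stayed within overlapping ranges in female liver. Isg15 stood at 54.4, 31.8, 59.5, 78.0 and 81.0 and at 43.2, 81.8, 40.8, 49.1 and 64.0 (log2 change -0.10), and Bst2 at 171, 181, 182, 214 and 220.2 and at 129, 193, 132, 153 and 151 (log2 change -0.36, limma adjusted p = 0.0990). For Bst2, 4 of the 5 nicotine libraries lay below every control and nicotine library 2 among them, and it passed without that library (adjusted p = 0.0312). Ifit1 stood at 30.1, 18.3, 25.9, 24.7 and 51.0 and at 41.3, 51.4, 30.1, 32.7 and 26.9 (log2 change 0.32), and Ifit3 at 26.2, 22.2, 39.3, 40.9 and 45.5 and at 34.4, 63.7, 33.3, 51.3 and 38.2 (log2 change 0.34). Neither passed, and nicotine library 2 was the highest for both. That library was the highest of the 10 for 12 members, with a mean member level of 0.44 against 0.06 to 0.19 in the other nicotine libraries. The other tested members, Ifit2, Rsad2, Usp18, Ifi27, Ifi35, Ifi44, Ifih1, Rtp4, Parp9, Parp14, Dtx3l, Trim30a, Gbp2, Ly6e, Herc6, Samd9l and Eif2ak2, had log2 changes between -0.27 (Eif2ak2) and 0.64 (Ifi44).

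Of the wider pathway, 0 genes passed in limma in female liver: 26 tested for production, receptors and signalling, 54 other interferon-induced genes and 14 for MHC class I presentation. Ifnar1 averaged 26.3 ± 2.98 and 34.3 ± 4.36, Ifnar2 190.2 ± 19.8 and 205 ± 26.4, and H2-K1 2109 ± 195 and 2257 ± 104 (log2 changes 0.37, 0.11 and 0.10). Macrophage marker sums overlapped between the groups (560.3 to 722 and 450.2 to 651). Endothelial marker sums did not, with 807 to 905 in controls and 599 to 722 with nicotine, and 1 of 8 tested markers (Fcgr2b) fell. Adipocyte marker sums ran from 797 to 1519 and from 1809.8 to 2019, nearly all of it Car3, which rose, while Plin1 stayed at 0 to 5.17. The part of these cells in the change of Irf1 and B2m was not tested.

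**Figure D4:**
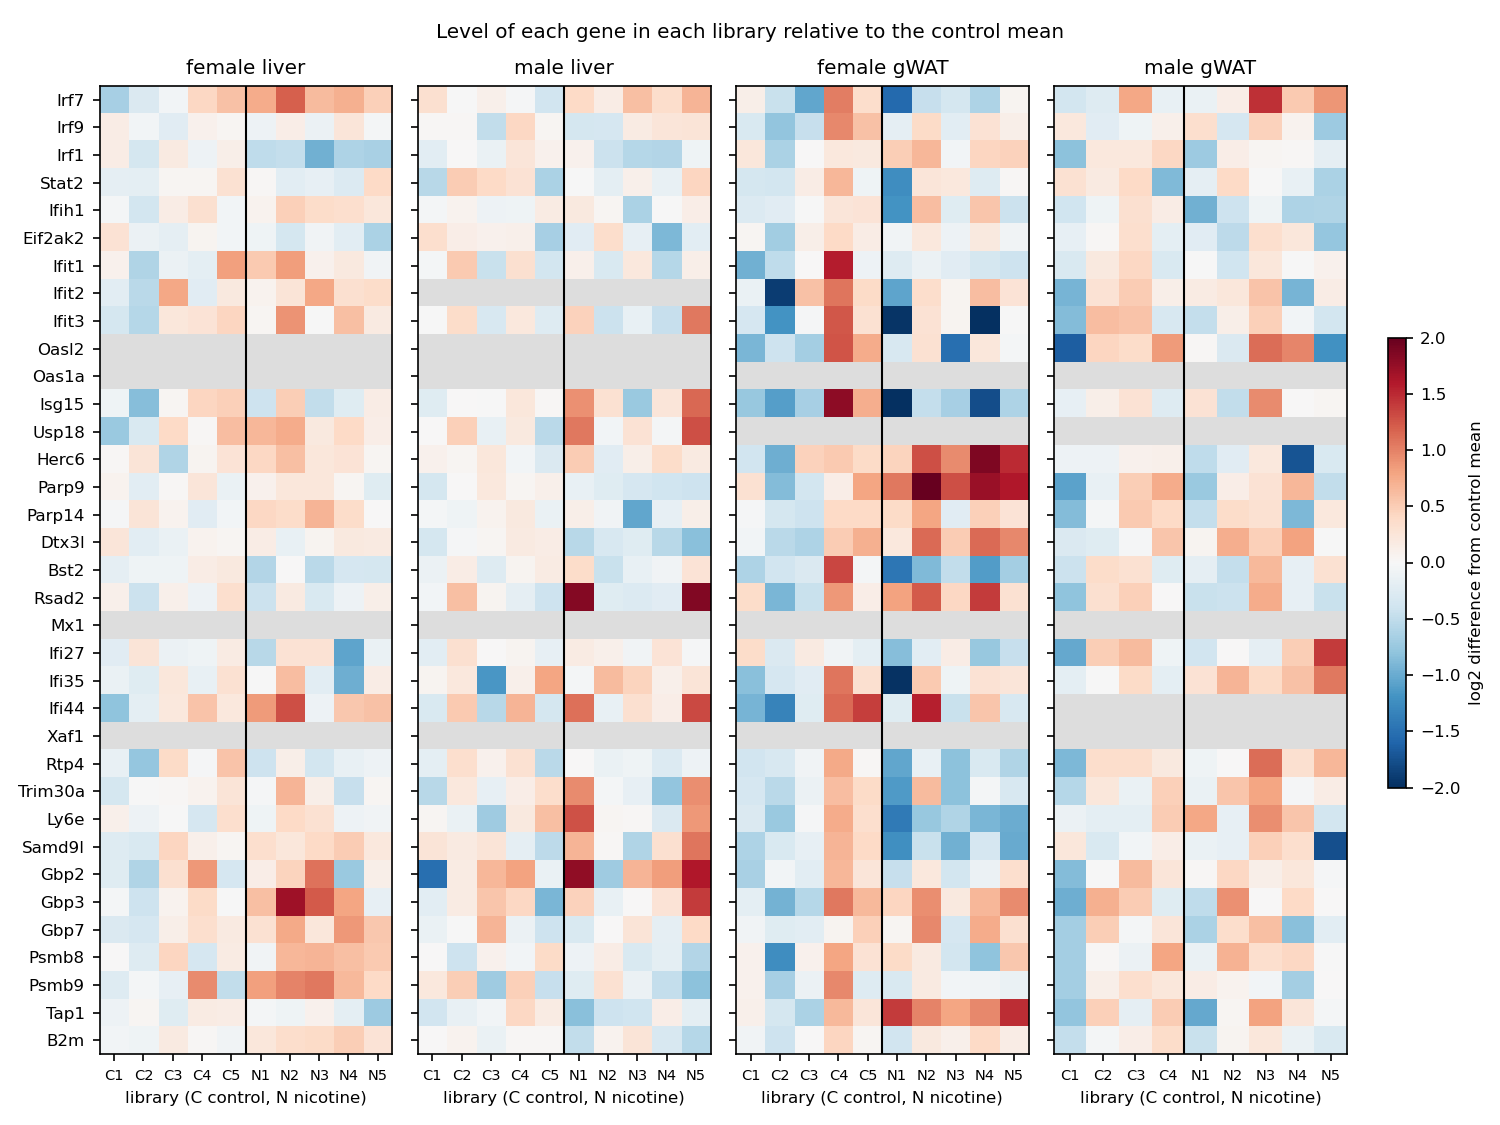
Heat map of the 35 interferon response genes (rows, grouped by role) in each library (columns, C control and N nicotine) of the 4 tables, as the log2 difference from the control mean, with colours capped at -2 and 2 and untested genes in grey. Male liver nicotine libraries 1 and 5 are high for Rsad2, Usp18, Isg15, Ifi44 and Gbp2, and female gWAT control library 4 is high for most genes.

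In the liver of sons no member passed. limma called 0 of 30 tested members and 5 of 9093 genes (0.055%), edgeR called 0 members and 3 genes (0.033%), and DESeq2 on the recovered reads 0 members and 186 genes (2.06%). The authors' deposited table also lists 0 members among its 154 genes (1.46%). At an unadjusted p below 0.05 limma gave 2 members, Parp9 and Dtx3l, both lower (6.67% of the members, beside 14.5% of all genes, 6.93% higher and 7.61% lower). The groups overlapped for all 30 (background without overlap 3.16%), 16 of 30 had a higher mean log2 level (all genes 4547 of 9093), and the median log2 change was 0.04 beside 0.00 for all genes.

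Dtx3l stood at 117, 148, 154, 170.3 and 166 in control and 102, 119, 126, 101 and 83.5 in nicotine male liver. The 3 lowest values of all were nicotine libraries 5, 4 and 1, and only control library 1 lay within the nicotine range (means 151 ± 21.1 and 106 ± 16.7, n = 5 each, log2 change -0.51, SE 0.15, limma adjusted p = 0.181). Its partner Parp9 stood at 74.2, 94.9, 109, 96.9 and 101 and at 85.3, 79.8, 74.4, 71.7 and 70.4 (log2 change -0.31, SE 0.13, limma adjusted p = 0.323), again with control library 1 at the level of the nicotine group. In female gWAT, where Parp9 rose, the means of both genes were higher with nicotine. Irf7 had the third smallest p, with 18.8, 14.8, 16.0, 14.7 and 11.2 in controls and 19.9, 16.6, 23.0, 19.2 and 24.6 with nicotine (log2 change 0.43, limma adjusted p = 0.356).

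Nicotine libraries 1 and 5 of male liver stood apart for many members. Rsad2 stood at 72.2, 114, 78.0, 66.5 and 56.0 in controls and at 272, 63.2, 61.8, 64.0 and 275 in nicotine libraries 1 to 5, so that libraries 1 and 5 lay far above the other 8. Isg15 stood at 31.6, 38.0, 37.2, 44.0 and 38.1 and at 71.4, 46.6, 22.0, 44.8 and 84.3, and Ly6e at 129, 114, 76.2, 143 and 189 and at 302, 129, 127, 102 and 228. In both, the same 2 libraries lay above all 8 others. This order held for 10 of the 30 tested members (Isg15, Ifit3, Bst2, Rsad2, Usp18, Ifi44, Trim30a, Gbp2, Ly6e and Samd9l), 33.3% beside 11.2% of all tested genes, a count chosen after the values were seen. B2m was the reverse, with 4622, 4818, 4192, 4662 and 4648 in controls and 3252, 4805, 5472, 3655 and 3079.9 with nicotine (log2 change -0.21), so that libraries 1 and 5 were the 2 lowest. That lower order held for B2m alone of the 30 tested members (3.33%), beside 14.8% of all tested genes. The mean member level was 0.30 and 0.38 in these 2 libraries and between -0.14 and 0.18 in the others. They also held hepatocyte marker sums of 57678 and 57345 against 73805 to 89474, and macrophage marker sums of 819 and 817 against 382 to 545. Ctss alone held 377 and 383 of these macrophage sums, against 126 to 210 in the other libraries. Mrc1, of the same list, went the other way, at 114 and 126 against 139 to 175. The 6 of 8 listed genes of plasmacytoid dendritic cells, which are strong interferon producers, summed to 389 and 363 in these libraries against 1.96 to 253 in the others, nearly all of it Ly6d (377 and 355, against 0 to 32.0). Siglech, the defining gene of that list, was at 4.41 and 0.82 in the same libraries and at 0 to 6.22 in the others. Without libraries 1 and 5 the members' median was -0.11 (all genes 0.01), and still 0 members passed. The part of these cells in the level of the 10 members was not tested.

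Other members overlapped between the groups of male liver. Irf9 stood at 92.0, 91.8, 63.8, 121 and 93.0 and at 70.6, 71.5, 102, 108 and 108, and Irf1 at 99.9, 117, 105, 138 and 123 and at 123, 86.0, 77.5, 76.8 and 109.7 (log2 changes -0.01 and -0.32). Irf1, which fell in daughters, had a lower mean in sons too and did not pass (limma adjusted p = 0.379). Stat2 stood at 24.7, 52.7, 48.7, 45.0 and 23.5 and at 36.8, 32.1, 39.8, 33.3 and 49.95, and Bst2 at 149, 180.3, 136, 167 and 181 and at 208, 119, 146, 154 and 197 (log2 changes 0.04 and -0.00). Ifit1 stood at 22.7, 33.7, 16.8, 29.4 and 17.9 and at 25.0, 18.7, 27.2, 15.4 and 25.4, and Ifit3 at 26.7, 34.8, 21.3, 31.3 and 22.4 and at 37.5, 19.7, 24.1, 19.2 and 56.5 (log2 changes -0.09 and 0.10). For Ifit3, nicotine library 5 was the highest. The antigen-processing members had lower means throughout, Psmb8 with 32.6, 24.3, 34.6, 31.3 and 42.6 and 30.2, 36.3, 26.2, 28.2 and 21.3, and log2 changes of -0.21, -0.27, -0.35 and -0.21 for Psmb8, Psmb9, Tap1 and B2m. The rest of the tested members had log2 changes between -0.23 (Eif2ak2) and 0.84 (Gbp2). In the wider pathway limma called 0 of 25 signalling genes, 0 of 48 other interferon-induced genes and 0 of 14 MHC class I genes. Ifnar1 averaged 36.1 ± 5.94 and 31.9 ± 6.98, Ifnar2 220.3 ± 32.0 and 194 ± 32.2, and H2-K1 2286 ± 157 and 2072 ± 332.

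In the gWAT of sons, limma, edgeR, DESeq2 on the recovered reads and the authors' deposited table called 0 of the members, and 0 genes in all (0.0% of 11210 tested in limma). Without adjustment, 2 of 30 members had a p below 0.05 (6.67%) beside 1.62% of all genes. The groups overlapped for all 30 members (background without overlap 0.731%), 15 of 30 had a higher mean log2 level (all genes 51.0%), and the median log2 change was -0.01.

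The 2 members at an unadjusted p below 0.05 had changes of opposite sign. Ifi35, an interferon-induced leucine zipper protein, stood at 19.0, 21.9, 29.0 and 19.1 in control columns 1 to 4 and at 26.9, 35.8, 29.0, 33.5 and 46.7 in nicotine libraries 1 to 5. Control column 3 lay within the nicotine range and the other 3 controls below it (means 22.2 ± 4.69, n = 4, and 34.4 ± 7.72, n = 5; log2 change 0.60, SE 0.23, limma adjusted p = 1.00). Ifih1 stood at 37.1, 46.4, 62.0 and 54.7 and at 24.7, 36.7, 46.5, 31.7 and 32.0 (means 50.1 ± 10.7 and 34.3 ± 8.01, log2 change -0.54, SE 0.23), with 4 of 5 nicotine libraries below every control. Dtx3l had the third smallest p of the members, with 57.1, 59.2, 69.0 and 103 and 73.2, 117, 97.7, 123 and 69.3 (log2 change 0.41, SE 0.25). Neither Ifih1 nor Dtx3l passed (limma adjusted p = 1.00 each).

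The 6 genes that passed in the gWAT of daughters overlapped between the groups in that of sons. Parp9 stood at 25.4, 49.2, 77.0 and 92.0 and at 32.3, 60.2, 66.8, 87.0 and 38.7 (log2 change -0.03, SE 0.40), and Tap1 at 15.4, 38.2, 24.0 and 39.1 and at 12.9, 28.2, 48.4, 32.6 and 26.7 (log2 change 0.01, SE 0.39). Herc6 stood at 21.7, 21.9, 25.0 and 25.2 and at 16.1, 19.8, 27.1, 6.34 and 18.7, with nicotine library 4 the lowest (log2 change -0.52, SE 0.36). Bst2 stood at 154, 268, 258 and 176 and at 184, 149, 326, 186 and 257, and Samd9l at 60.7, 41.9, 50 and 57.3 and at 47.3, 46.1, 72.6, 66.2 and 14.7 (log2 changes 0.03 and -0.25). Ly6e stood at 175, 165, 165 and 271 and at 325, 169, 361, 277 and 147 (log2 change 0.34, SE 0.30), and 3 nicotine libraries lay above every control while library 5 was the lowest of all. The factors overlapped too. Irf7 stood at 11.8, 12.7, 27.0 and 13.9 and at 14.0, 16.9, 44.5, 22.7 and 29.3, Irf9 at 111, 81.9, 90.0 and 102 and at 122, 75.3, 133, 101 and 57.3, and Irf1 at 139, 287, 287 and 329 and at 149.6, 272, 255, 252 and 219 (log2 changes 0.57, -0.04 and -0.14). Control column 1 was the lowest for Irf1, and nicotine library 3 was the highest for Irf7 and Irf9. Stat2 stood at 29.0, 26.4, 31.0 and 12.2 and at 20.4, 31.1, 23.2, 20.8 and 14.7, Isg15 at 49.8, 61.0, 69.0 and 46.9 and at 68.9, 39.5, 109, 56.2 and 57.3, and Oasl2 at 2.72, 14.6, 14.0 and 20.0 and at 10.8, 8.47, 24.2, 21.8 and 4.00 (log2 changes -0.11, 0.16 and 0.12). All 3 overlapped. Ifit1 stood at 19.0, 27.3, 32.0 and 19.1 and at 23.7, 17.9, 28.1, 23.6 and 25.3, Ifit3 at 25.4, 72.8, 70.0 and 37.3 and at 33.4, 50.8, 65.8, 45.3 and 36.0, Psmb8 at 25.4, 41.9, 38.0 and 72.1 and at 37.7, 67.8, 52.3, 55.3 and 41.3 and B2m at 2441, 3313, 3721 and 4396 and at 2479, 3507, 3986, 3104 and 2733 (log2 changes -0.02, -0.06, 0.26 and -0.12). The other tested members had log2 changes between -0.19 (Eif2ak2) and 0.41 (Rtp4).

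The library-to-library pattern of male gWAT followed 2 columns. Nicotine library 3 was the highest for 15 of the 30 tested members, and its macrophage marker sum of 4986 compares with 947 to 2709.9 in the other 8. Control column 1, the one with the most epididymis transcripts, was the lowest for 17 members. Median correlations between members within groups were 0.37 in male gWAT, 0.21 in female liver and 0.13 in male liver. These again are a description over 9 or 10 libraries that differ in depth and cell makeup. In limma 0 of 27 signalling genes, 0 of 54 other interferon-induced genes and 0 of 16 MHC class I genes passed in male gWAT. Ifnar1 averaged 32.3 ± 8.72 and 43.2 ± 8.93, Ifnar2 181 ± 46.2 and 162 ± 35.7, and H2-K1 1928 ± 294 and 2016 ± 452 (n = 4 and 5).

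Whether the nicotine difference itself differed between the sexes was tested with an interaction term in limma. In gWAT 2 of 30 members passed (6.67%) beside 8.87% of 10042 genes. Herc6 had log2 changes of 1.21 in females and -0.52 in males, a difference of 1.72 (SE 0.51, limma adjusted p = 0.0398), and Ly6e of -0.94 and 0.34, a difference of -1.28 (SE 0.40, limma adjusted p = 0.0499). Parp9 followed with a difference of 1.57 (SE 0.50, limma adjusted p = 0.0536), and Tap1 (1.12), Rtp4 (-0.99) and Bst2 (-0.95) had larger adjusted p-values (0.130, 0.128 and 0.178), these 6 being the members at an unadjusted p below 0.05 (26.2% of genes). No member passed without female control library 1, female nicotine library 2, 4 or 5, or male control column 2 or 3, or with no filter. Herc6 alone passed without female control library 3 or 4 or male nicotine library 1 or 3, Ly6e alone without female control library 2, male control column 4 or male nicotine library 5, and Parp9 alone without male nicotine library 4. Without female control library 5, female nicotine library 1 or male control column 1, Herc6 and Parp9 passed.

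In liver 0 of 30 members passed the interaction test in limma beside 1.56% of 8699 genes, with 6 members at an unadjusted p below 0.05 (20.0%, beside 16.3% of genes). For all 6 the female change was the more positive. Dtx3l had the smallest p (0.09 in females and -0.51 in males, difference 0.59, SE 0.18, limma adjusted p = 0.109), and B2m (difference 0.56), Psmb9 (1.06), Psmb8 (0.69), Parp14 (0.58) and Parp9 (0.38) followed with adjusted p-values of 0.144 to 0.293. B2m passed without male nicotine library 3, and the other alternatives left 0 members.

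The list holds 2 neighbouring pairs that start beside each other in opposite directions. On chromosome 16, Parp9 starts at 35938470 on the plus strand and Dtx3l at 35939151 on the minus strand. On chromosome 17, Tap1 starts at 34187553 on the plus strand and Psmb9 at 34187764 on the minus strand. In both pairs the first parts of the genes overlap. The use of strand in counting was not given in the sources used here, so reads in an overlap could not be assigned to one gene, but a 3′-tag library reads mainly the far ends. Parp9 and Dtx3l had log2 changes of 1.54 and 0.79 in female gWAT, -0.31 and -0.51 in male liver, 0.07 and 0.09 in female liver and -0.03 and 0.41 in male gWAT. Tap1 and Psmb9 had 1.13 and -0.07 in female gWAT, -0.19 and 0.79 in female liver, -0.35 and -0.27 in male liver and 0.01 and -0.10 in male gWAT. Only Parp9 and Tap1 passed, both in female gWAT, and no test compared the 2 genes of a pair.

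**Figure D5:**
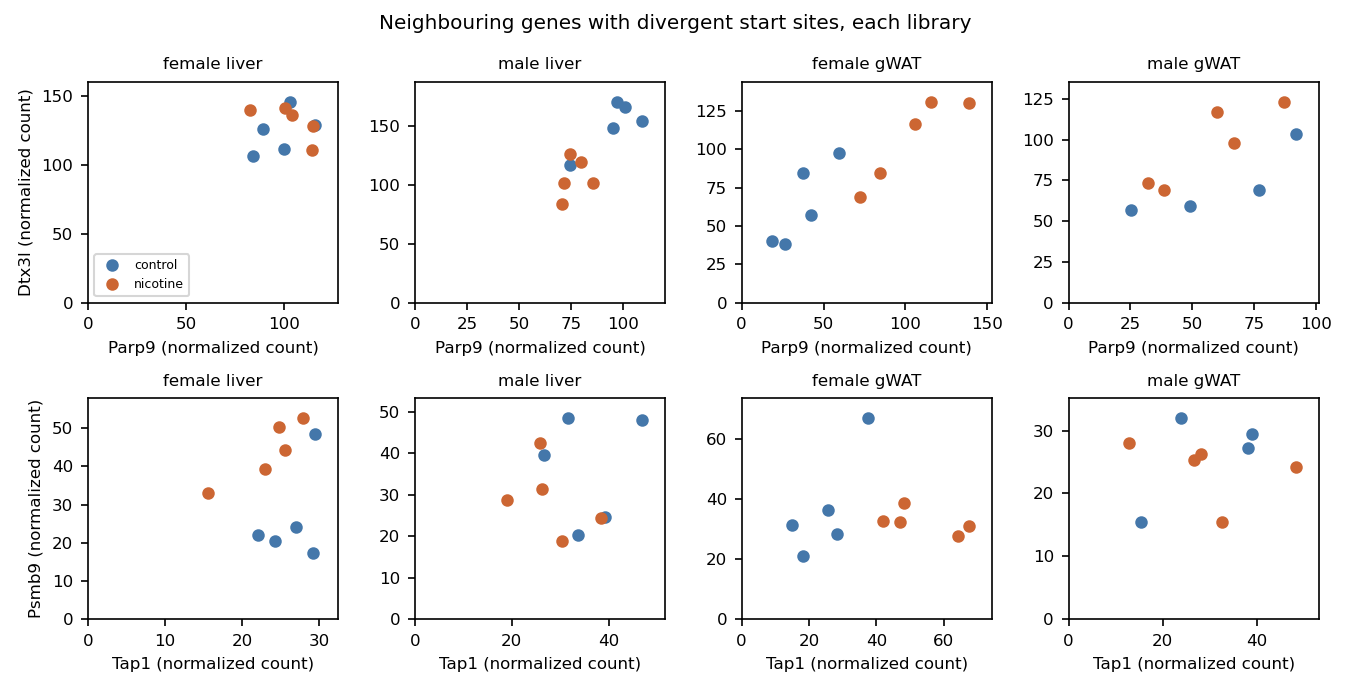
Normalized counts of neighbouring genes with opposite start sites in each library, Parp9 against Dtx3l (top) and Tap1 against Psmb9 (bottom), control in blue and nicotine in orange, axes from 0. In female gWAT the nicotine libraries lie to the right of the controls for Tap1 (41.8 to 67.5 against 14.8 to 37.6) and not above them for Psmb9, while nicotine libraries lie to the right for Parp9 and, in 3 of 5, above every control for Dtx3l.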

How the data were processed

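The values used were signals: DESeq2 normalized counts that the authors deposited in 1 table per tissue and sex, with adapter trimming by cutadapt, alignment with STAR to mm10 and normalization with DESeq2, per the submitters' processing notes. The counting step, its annotation and its use of strand were not given in the sources used here. RNA was extracted with a Zymo Direct-zol kit and sequenced from a 3′-tag library, per the labels. The deposited tables also hold the authors' log2 fold changes and adjusted p-values, which are quoted only where named as the authors'. Groups were taken from the labels, and table columns were matched to samples by name. The 4 male gWAT control columns show their group and not which of the 5 labelled samples they are, so the planned fit with 5 controls was run with 4.

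Dividing by the value of 1 read gave back whole read counts (100.0% of values within 0.1 reads of a whole number), which were used for edgeR 4.0.16 and DESeq2 1.42.0 as alternatives. The test for all quoted changes was limma 3.58.1 in R 4.3.3, with an intensity trend. It used log2(normalized count + 1) and tested genes averaging at least 10 over a table, adjusted by Benjamini-Hochberg over all tested genes of a table. The limma fit was also run on simulated counts, and the outcome is not reported here. The sex interaction was fitted over the 4 groups of a tissue, each table having been normalized on its own. Alternatives were other pseudocounts (0.5 and 5), filters, quantile normalization, library weights, a replicate block, each library left out and named pairs of libraries left out. Depth was 1543208 to 2239073 reads per library. Promoter windows came from RefSeq tables, and gene positions from GENCODE M21 (GRCm38).

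Members, roles and gene lists were chosen with earlier results of these data known. Values are given per library for members past the threshold in any comparison, the 3 with the smallest p in each, a fixed set (Irf7, Irf9, Irf1, Stat2, Isg15, Ifit1, Ifit3, Oasl2, Bst2, Psmb8, B2m) and the member with the smallest interaction p per tissue. A few others are given for contrast and were chosen after their values were seen. Of each pathway list, genes past the threshold are named, at most 4 in each direction, with Ifnar1, Ifnar2 and H2-K1. Another gene of the pathway lists is not reported here.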

Additional observations from a re-analysis of the deposited data

Results flagged for a closer look

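Single libraries lay far from the rest of their group, by Dixon's criterion, in 6 of the 164 groups of named members that were examined, and chance gives about 1 in 20. In female liver, Psmb8 was 27.5 normalized counts for nicotine library 1, where the 4 others of its group read 42.4 to 47.3. In male liver, Gbp7 was 63.8 in control library 3 and 29.1 to 39.0 in its group otherwise. Female gWAT control library 4 accounted for Ifit1 at 84.3 (other controls 13.7 to 27.9) and Bst2 at 563 (145 to 216). In male gWAT, Irf7 was 27.0 in control column 3 (11.8 to 13.9 in the others) and Ly6e 271 in control column 4 (165 to 175).

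The nicotine difference differed between the sexes in gWAT for Herc6 (1.72 on the log2 scale, female minus male) and Ly6e (-1.28), by the interaction test.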

How the results depend on the processing

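In female liver the number of members past the threshold was 2. It was 1 with quantile normalization and 4 with DESeq2, and 1 to 4 with single libraries left out. In female gWAT it was 4 to 7 under all alternatives, and in male liver and male gWAT 0 under all. The call of Bst2 in female gWAT was also lost with library weights (adjusted p = 0.0599), with length and GC trends removed (0.129) and without control libraries 2 and 4 (0.0966), and that of Samd9l with no filter (0.0576) and without control libraries 2 and 4 (0.140). For the sex difference in gWAT, the count of 2 was 1 with a pseudocount of 0.5 or 5 or quantile normalization, 0 with no filter and 0 to 2 with single libraries left out. In liver it was 0 to 1 with single libraries left out. No value under test that had passed changed sign. The median over the members in female gWAT ran from -0.24 to 0.13 with single libraries left out. The cause of these differences was not tested.

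Over all genes, the female liver count of 301 was 185 to 329 with single libraries left out and 181 without control library 4 and nicotine library 5. The male liver count of 5 was 0 at a mean of 50 or more, 3 with edgeR, 186 with DESeq2, 0 with the replicate block, 0 to 16 with single libraries left out and 54 without nicotine libraries 2 and 4. The female gWAT count of 2656 was 1539 without control libraries 2 and 4.

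The labels do not say whether samples with the same replicate number are paired. After removal of group means, correlations between same-numbered control and nicotine samples ran from -0.277 to 0.173, and 1 of 15 correlated best with its own number. Such values show no pairing but cannot exclude a shared litter or day. With the replicate block, 3 members passed in female liver, where Gbp7 was added (adjusted p = 0.0429), 6 in female gWAT, where Bst2 left (0.0518) and Dtx3l entered (0.0443), and 0 in male liver. No paired analysis was possible in male gWAT because the numbers of its control columns do not show which labelled sample each one is. Settings that leave out libraries in male gWAT without control column 1 and nicotine library 1, in male liver without nicotine libraries 2 and 4, in female gWAT without control libraries 2 and 4, and the length and GC correction were chosen after seeing the data. At these depths 1 read is worth 0.736 to 1.33 normalized counts, so members near the mean of 10 rest on few reads.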
